A study of Mus musculus with 6 samples.

Results

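Mitosis and spindle genes were examined in early thymic progenitors that lacked Tcf1, a transcription factor that binds DNA together with beta-catenin. The group was a list of 50 genes of mitotic entry, the spindle, the kinetochore, chromosome structure and cytokinesis, and 49 of them were measured, out of 18193 genes with a probe set of their own. Ccnb1 was not analysed here. Sgol1 was found under its current symbol Sgo1. Where a gene had several probe sets, the brightest on average stood for it, a choice blind to genotype. Affymetrix whole-genome mouse arrays were used, and the mice, of the C57Bl/6 background, were 10 weeks old. There were 3 arrays of Tcf1-/- cells and 3 of Tcf1-/+ cells, the control, which another label field calls wild type. All cells were thymocytes of the DN1 stage, sorted as Lin-, CD44+, CD25- and kit+, and their RNA was amplified before labelling. The labels call the arrays of a genotype biological replicates but do not say how many animals gave the cells of each, so errors measure the spread between arrays.

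Mitosis is driven by cyclin B and cyclin A bound to Cdk1, together with the Polo, Aurora and NIMA-related kinases. Condensins and topoisomerase II compact the chromosomes, kinesins and spindle proteins build the bipolar spindle, and kinetochores attach the chromosomes to it. The spindle checkpoint holds back the anaphase-promoting complex until every chromosome is attached, after which cohesin is cut and the cell divides. Many of these genes are transcribed together late in the cell cycle. They are repressed in resting cells by the DREAM complex and activated in G2 by B-Myb and Foxm1, both through a promoter element called the CHR (cell cycle genes homology region), often near CCAAT boxes bound by NF-Y. In the thymus, progenitors divide several times before they commit to the T lineage, and in a bulk sample fewer dividing cells and less RNA per cell cannot be told apart.

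Promoters were read because the members are known to share this form of control, and this sequence was not used to choose them. RefSeq promoters of the mouse build GRCm38.p6, 250 bases before to 50 bases after the transcript start, were held for 42 of the 50 genes. The CHR core TTTGAA, on either strand, was found in 29 of the 42 (69.0%). It was found in 20.2% of all 27025 genes with such a window and in 15.7% of the 14452 that were also on the array. The CCAAT box was found on either strand in 31 members (73.8%) against 42.0% of genes on the array, and both elements together in 25 members (59.5%) against 6.21%. The motifs were counted separately, and a CHR and a CCAAT match can share a base at their ends. The variant core TTCGAA was found in 4 members (9.52%) against 2.23%. Of 38 CHR matches in the members, 26 began within 50 bases of the transcript start, and they belonged to 25 genes. A match of these letters is a description of the sequence, and no binding was measured.

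The promoters below, from 150 bases before to 50 after the transcript start, are those of 7 of the 8 genes that were lower in every Tcf1-/- array and hold a CHR core in this stretch, and of Cdk1, a textbook gene of this class whose genotypes lay close together. Mki67, the eighth, is not printed, and its cores begin at -98 and -116 relative to the start. The genes were picked after their values were seen. Capitals mark the CHR core, the variant core and CCAAT on either strand.
Plk1 (chr7:122159285-122159484, plus strand): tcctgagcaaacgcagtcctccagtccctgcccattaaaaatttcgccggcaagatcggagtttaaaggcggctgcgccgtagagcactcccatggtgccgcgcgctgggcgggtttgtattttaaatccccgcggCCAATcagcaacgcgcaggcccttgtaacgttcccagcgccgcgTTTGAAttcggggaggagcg
Kif15 (chr9:122950931-122951130, plus strand): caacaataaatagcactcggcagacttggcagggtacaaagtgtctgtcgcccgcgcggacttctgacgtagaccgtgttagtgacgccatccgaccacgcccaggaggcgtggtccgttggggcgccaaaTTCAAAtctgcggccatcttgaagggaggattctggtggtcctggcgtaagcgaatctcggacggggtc
Ncapd2 (chr6:125191537-125191736, minus strand): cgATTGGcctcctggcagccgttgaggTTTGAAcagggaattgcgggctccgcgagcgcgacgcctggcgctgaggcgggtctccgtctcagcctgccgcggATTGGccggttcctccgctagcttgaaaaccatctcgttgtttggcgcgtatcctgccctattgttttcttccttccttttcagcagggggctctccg
Ndc80 (chr17:71526808-71527007, minus strand): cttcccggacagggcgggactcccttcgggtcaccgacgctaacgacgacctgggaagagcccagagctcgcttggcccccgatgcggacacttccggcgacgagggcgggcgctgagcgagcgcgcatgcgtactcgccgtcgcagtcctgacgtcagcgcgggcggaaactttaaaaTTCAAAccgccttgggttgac
Top2a (chr11:99024140-99024339, minus strand): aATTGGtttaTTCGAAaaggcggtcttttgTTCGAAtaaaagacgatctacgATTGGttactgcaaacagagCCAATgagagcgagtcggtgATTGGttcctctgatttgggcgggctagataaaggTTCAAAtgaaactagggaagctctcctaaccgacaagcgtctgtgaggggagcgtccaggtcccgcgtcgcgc
Kif11 (chr19:37376232-37376431, plus strand): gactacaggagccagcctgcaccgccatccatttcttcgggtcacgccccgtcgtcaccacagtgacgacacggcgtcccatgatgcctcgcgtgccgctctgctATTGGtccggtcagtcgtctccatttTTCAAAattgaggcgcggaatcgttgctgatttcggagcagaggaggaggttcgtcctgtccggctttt
Ncapg (chr5:45669775-45669974, plus strand): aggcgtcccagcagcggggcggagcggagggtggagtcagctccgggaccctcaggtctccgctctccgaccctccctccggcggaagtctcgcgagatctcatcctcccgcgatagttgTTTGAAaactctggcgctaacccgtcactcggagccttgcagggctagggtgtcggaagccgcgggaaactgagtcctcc
Cdk1 (chr10:69352863-69353062, minus strand): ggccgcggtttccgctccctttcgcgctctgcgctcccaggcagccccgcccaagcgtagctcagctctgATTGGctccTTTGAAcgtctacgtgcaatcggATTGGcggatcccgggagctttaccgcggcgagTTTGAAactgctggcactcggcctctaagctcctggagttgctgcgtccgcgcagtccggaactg
In Plk1 the CHR core lies 30 bases after the transcript start and the CCAAT box 14 bases before it. In Kif11 the CHR core lies 19 bases before the start and the inverted CCAAT box 45 bases before it, while Ndc80 has a CHR core 29 bases after the start and no CCAAT box in the window. In Cdk1 the nearer of 2 CHR cores lies 15 bases before the start.

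**Figure D1:**
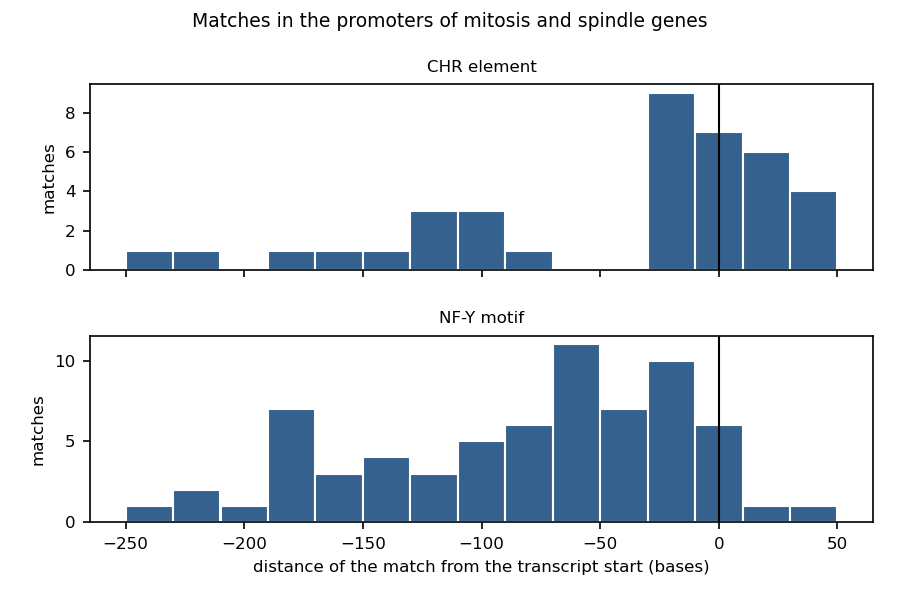
Histograms of where CHR matches (upper panel) and CCAAT matches (lower panel, drawn as the NF-Y motif) begin in the promoters of 42 mitosis and spindle genes, in bases from the transcript start at 0, with the number of matches on the vertical axis. The CHR matches crowd around the start, with 26 of 38 within 50 bases, and the CCAAT matches lie mostly upstream of it.

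The targeted gene was not analysed here, so the genotype labels were not checked by it. The arrays were alike in overall level, with medians between 5.80 and 5.86, but Tcf1-/- replicate 2 stood apart. It correlated with the other 5 arrays between 0.870 and 0.893 over all probe sets, where the other pairs lay between 0.913 and 0.933. The log2 difference between the 3' and 5' control probe sets of Tfrc was 0.055 on it and between -1.08 and -0.62 elsewhere. By the same measure of Gapdh it did not stand apart, at 2.78, with Tcf1-/+ replicate 1 at 2.89 and the others between 1.74 and 2.37. Kit, a gene of the sort gate, was at 7.45 on it and between 9.60 and 10.80 on the others. Cd44 lay between 9.60 and 10.39 on all 6 arrays. Flt3 and Cd34, progenitor genes of the same marker list named after their values were seen, were lower in Tcf1-/- without overlap. Flt3 was at 8.54, 8.29 and 7.17 against 9.17, 9.56 and 9.86, and Cd34 at 10.70, 9.54 and 10.29 against 11.72, 11.08 and 11.46. Their part in the values of the mitosis genes was not tested. Il2ra, which encodes the CD25 selected against, was at 9.32, 10.97 and 10.53 in Tcf1-/- against 9.22, 9.38 and 10.17 in Tcf1-/+, with overlap. All these values lay well above the background level of 5.21, which is the 95th percentile of 27 bacterial control probe sets. Signal of the Y-linked genes was low on Tcf1-/- replicate 1 and on Tcf1-/+ replicates 1 and 3. Tcf1-/- replicates 2 and 3 held both Y-linked and Xist signal, and Tcf1-/+ replicate 2 held Y-linked signal with Xist at 5.12. Group counts and the members' differences are therefore given below with all 6 arrays and without Tcf1-/- replicate 2. The part of these array differences in the results was not tested beyond that and the settings named at the end.

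Mitosis and spindle genes had lower mean values in Tcf1-/- than in Tcf1-/+ for 43 of 49 genes and higher for 6. The median difference, Tcf1-/- minus Tcf1-/+ on the log2 scale as for all differences here, was -0.61, against 0.04 over all 18193 genes. Over the 12111 genes whose means lay above background in both genotypes, as they did for all 49 members, the median was -0.01. The share with a lower mean was 87.8% of members, 45.7% of all genes and 50.6% of the genes above background. No member passed limma's adjusted p of 0.05, and 0 of 45037 probe sets did (0%). The lowest adjusted p of a member in limma was that of Plk1, 0.407. At an unadjusted p under 0.05, 10 members were lower (20.4%) and 0 higher, against 3.4% of all genes lower, 3.38% higher, and 4.18% lower among the genes above background.

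In 12 members every Tcf1-/- array lay under every Tcf1-/+ array (24.5%), and in 0 members the reverse held. Over all genes 4.94% were lower without overlap and 7.22% higher, and 5.72% of the genes above background were lower. The 12 were Plk1, Ncapd2, Kif15, Top2a, Ndc80, Melk, Sgol1, Ncapg, Kif11, Incenp, Pttg1 and Mki67. They span kinases, motor proteins, the kinetochore, the checkpoint and chromosome structure. By its brightest probe set, no gene of the mitotic entry group, the spindle proteins or cytokinesis was among them. Without Tcf1-/- replicate 1, which held some of the higher Tcf1-/- values, 22 members were lower without overlap. Fewer arrays overlap less, and the share over all genes for those arrays is not given here. The 22 therefore cannot be set against the 12 or the 4.94%.

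**Figure D2:**
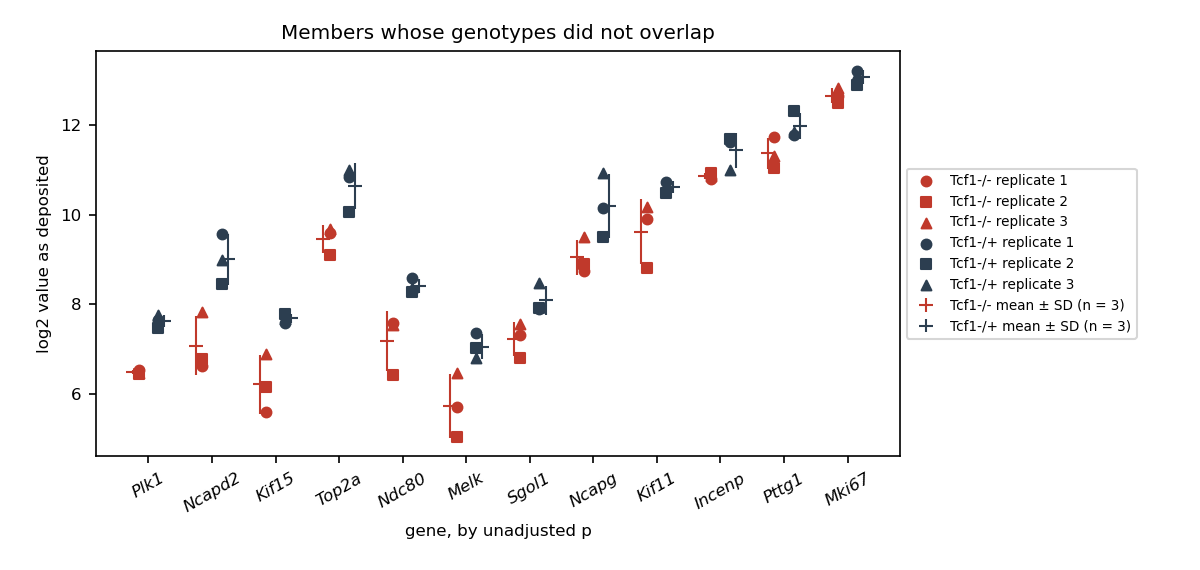
Deposited log2 values of the 12 members whose genotypes did not overlap, ordered by unadjusted p, with 1 point for each array (red Tcf1-/-, dark blue Tcf1-/+, shape by replicate) and bars for the mean ± SD of 3 arrays. Plk1 shows the tightest groups, at 6.44 to 6.54 against 7.48 to 7.75, and Incenp, Pttg1, Ncapg and Mki67 are separated by the smallest gaps.

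Without Tcf1-/- replicate 2, 33 of 49 members had lower means (67.3%), against 49.1% of all genes and 50.3% of those above background. The median moved to -0.37, against 0.01 over all genes. At an unadjusted p under 0.05, 8 members were lower (16.3%) and 0 higher, against 3% of all genes and 3.77% of those above background, and 7 of the 8 were among the earlier 10. Members lower without overlap numbered 13 (26.5%), where 2 arrays against 3 gave 9.81% of all genes and 9.99% of those above background. No member passed the adjusted threshold. The sign turned for 14 members, 12 of them from lower to higher, and the size of the difference was smaller for 39.

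Array by array, Tcf1-/- replicate 2 was the lowest of the 6 for 32 of 49 members (65.3%), where it was the lowest for 19.3% of all genes and 25.3% of the genes above background. The median of the members, each taken relative to its own mean over the arrays, was -0.84 on that array, 0.02 on Tcf1-/- replicate 1 and -0.13 on replicate 3. On the Tcf1-/+ arrays it was 0.41, 0.03 and 0.58. By this median the genotypes were barely separate, since Tcf1-/- replicate 1 and Tcf1-/+ replicate 2 lay next to each other. On Tcf1-/- replicate 2, 15 members lay more than 1 log2 unit under both other Tcf1-/- arrays, and 5 more than 2 units. The median SD of a member was 0.73 within Tcf1-/- and 0.52 within Tcf1-/+, against 0.50 and 0.41 for genes above background.

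**Figure D3:**
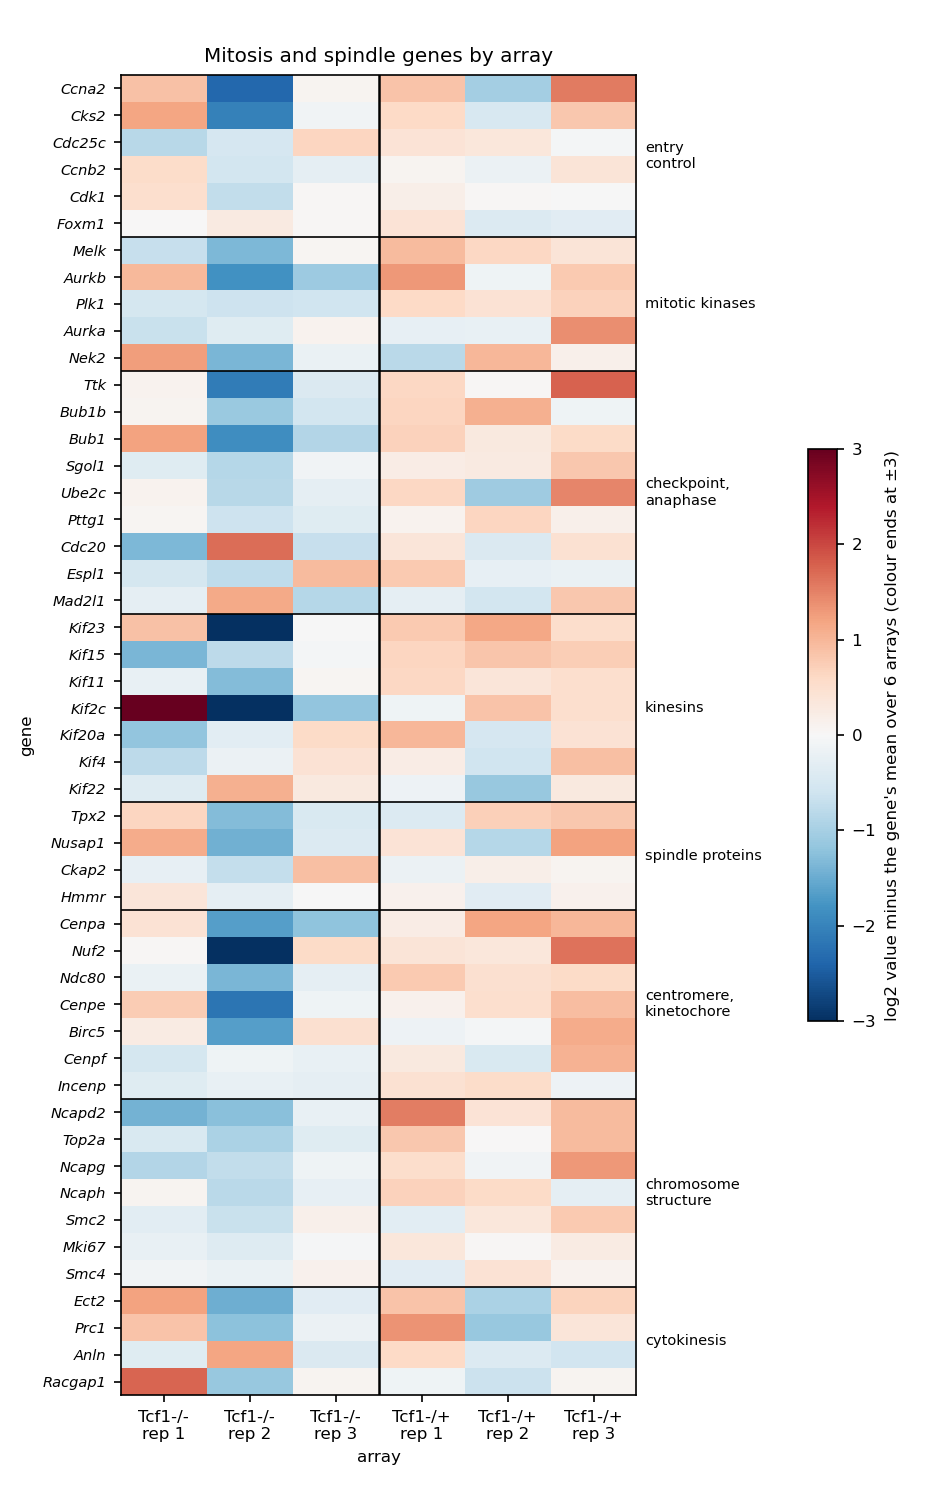
Heat map of the 49 measured members, in rows grouped by role, over the 6 arrays, coloured by the log2 value minus the gene's mean over the arrays (blue lower, red higher, colours ending at 3 units either way). Tcf1-/- replicate 2 forms the bluest column, with a median of -0.84, and Tcf1-/+ replicate 3 the reddest, with 0.58.

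Chromosome structure genes were the group in which 7 of 7 members had lower means both with all arrays and without Tcf1-/- replicate 2. Their medians were -0.66 and -0.41. Ncapd2, a regulatory subunit of condensin I, was at 6.63, 6.77 and 7.83 on the Tcf1-/- arrays and at 9.57, 8.44 and 8.98 on the Tcf1-/+ arrays. All 3 Tcf1-/- arrays lay under all 3 controls, with a mean of 7.07 ± 0.65 (SD, n = 3) against 8.998 ± 0.56 (SD, n = 3). The difference was -1.92 (SE 0.44), and -1.77 without Tcf1-/- replicate 2. This was the largest difference among the members, 3.79-fold lower, with an adjusted p of 0.518 in limma. The second probe set of Ncapd2 differed by -0.68, also without overlap, and by -0.52 without Tcf1-/- replicate 2.

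Ncapg, another condensin I subunit, was at 8.75, 8.89 and 9.49 in Tcf1-/- and at 10.15, 9.51 and 10.92 in Tcf1-/+. Its groups were separated by a gap of hardly any size, and the difference was -1.15, with a 95% confidence interval of -2.17 to -0.13, and -1.08 without Tcf1-/- replicate 2. Ncaph, the kleisin of the same complex, differed by -0.66 (SE 0.37) with overlap, and by -0.41 without that array. The core ATPases of condensin lay closer together, with Smc2 at -0.54 (SE 0.37) and Smc4 at -0.12 (SE 0.26). They were at -0.35 and -0.052 without Tcf1-/- replicate 2. Other probe sets of Smc2 disagreed, at -0.08, -0.70, 0.02 and 0.57, and those of Smc4 were at -0.50 and -0.48. On the brightest probe sets the condensin I subunits Ncapd2, Ncapg and Ncaph had larger mean differences than the Smc ATPases. On their other probe sets these 3 subunits were at -0.68, -1.06 and -1.01, where 1 probe set of Smc2 was at -0.70. The contrast between genes was not tested.

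Top2a, the topoisomerase that untangles replicated chromosomes, was at 9.59, 9.09 and 9.69 in Tcf1-/- and at 10.85, 10.06 and 11.001 in Tcf1-/+. It did not overlap, with a difference of -1.18 (interval -1.98 to -0.38), and -0.998 without Tcf1-/- replicate 2. Its other probe sets differed by -0.02 and 0.15, the second with both means under background, so the difference was seen on the brightest of 3 only. Mki67, which coats mitotic chromosomes and marks dividing cells, was at 12.65, 12.49 and 12.83 against 13.21, 12.90 and 13.11. The groups were separate but close, and the difference of -0.42 had an interval of -0.91 to 0.08, and was -0.33 without Tcf1-/- replicate 2.

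Mitotic kinases had lower means in 5 of 5 members, with a median of -1.15, and in 4 of 5 without Tcf1-/- replicate 2, with a median of -0.70. Plk1, which acts in centrosome maturation, spindle assembly and mitotic exit, was at 6.54, 6.44 and 6.46 in Tcf1-/- and at 7.66, 7.48 and 7.75 in Tcf1-/+. Each genotype was tightly grouped, at 6.48 ± 0.05 (SD, n = 3) and 7.63 ± 0.14 (SD, n = 3). The difference was -1.15, with a 95% confidence interval of -1.60 to -0.70, or 2.22-fold lower. Leaving out Tcf1-/- replicate 2 left it at -1.13 (SE 0.21). It was measured by 1 probe set.

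Melk, a kinase of the AMPK family that is transcribed in G2 and mitosis, was at 5.70, 5.04 and 6.46 against 7.35, 7.02 and 6.79. Its genotypes did not overlap, and the difference was -1.32 (SE 0.40) with all arrays and -0.97 (SE 0.33) without Tcf1-/- replicate 2. Aurkb, the kinase of the chromosomal passenger complex that corrects faulty attachments, was at 9.001, 6.19 and 6.93 against 9.31, 7.88 and 8.81. Tcf1-/- replicate 1 lay within the control range and the other Tcf1-/- arrays under it, and the difference was -1.29 (SE 0.78), and -0.70 without Tcf1-/- replicate 2. Aurka, the centrosomal Aurora kinase, differed by -0.61 (SE 0.51), with 1 high control array at 7.87, and by -0.58 without Tcf1-/- replicate 2. Nek2, which splits the centrosomes, differed by -0.23 (SE 0.77), and by 0.40 without Tcf1-/- replicate 2.

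Centromere and kinetochore genes had lower means in 7 of 7 members, with a median of -1.05, and in 6 of 7 without Tcf1-/- replicate 2, with a median of -0.61. Ndc80, the microtubule-binding subunit of the outer kinetochore, was at 7.59, 6.41 and 7.53 in Tcf1-/- and at 8.57, 8.27 and 8.37 in Tcf1-/+. All Tcf1-/- arrays lay under all controls. Its difference was -1.23 (interval -2.11 to -0.34), and -0.85 (SE 0.21) without Tcf1-/- replicate 2.

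Nuf2, the partner of Ndc80 in the same complex, was at 6.80, 3.79 and 7.35 against 7.16, 7.11 and 8.41. The low value of Tcf1-/- replicate 2, under background, carried much of its difference of -1.58 (SE 0.98), which was -0.49 without that array. Cenpa, the histone variant that marks centromeres, was at 7.84, 5.77 and 6.21 against 7.64, 8.61 and 8.42, an overlap by 1 array of each genotype. It differed by -1.61 (SE 0.59), by -1.19 without Tcf1-/- replicate 2, and by -0.24 and -0.16 on its other probe sets. Cenpe, a kinesin of the kinetochore, differed by -1.05 (SE 0.76) and by -0.21 without Tcf1-/- replicate 2. Cenpf, a large kinetochore protein, differed by -0.58 (SE 0.40) and by -0.67 without that array. Its other probe sets overlapped, with differences of 0.49 and -0.55, the second with both means under background. Without Tcf1-/- replicate 2 the first was at 1.15, with both remaining Tcf1-/- arrays over all controls. Of the passenger complex, the scaffold Incenp differed by -0.57 (SE 0.25) without overlap, at 10.79, 10.93 and 10.87 against 11.61, 11.70 and 10.99, and by -0.61 without that array. That probe set ends in _x_at, which marks probes that also match other transcripts, and the other 4 of Incenp overlapped, with differences of -0.16, -0.11, 0.15 and 0.11. Birc5, the survivin subunit of the complex, differed by -0.60 (SE 0.67), and by 0.07 without Tcf1-/- replicate 2.

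Of the kinesins, 6 of 7 had lower means, with a median of -0.82, and 5 of 7 without Tcf1-/- replicate 2, with a median of -0.40. Kif15, which helps to keep spindle poles apart, was at 5.59, 6.15 and 6.89 in Tcf1-/- and at 7.58, 7.79 and 7.68 in Tcf1-/+. The controls spanned a narrow range that no Tcf1-/- array reached. The difference was -1.47 (interval -2.34 to -0.60), or 2.77-fold lower, and -1.44 without Tcf1-/- replicate 2. Kif11, the motor that separates the poles in a bipolar spindle, was at 9.89, 8.81 and 10.17 against 10.74, 10.47 and 10.61. It did not overlap, with a difference of -0.99 (SE 0.38), and -0.58 (SE 0.22) without Tcf1-/- replicate 2. The other probe sets of Kif11 overlapped, with differences of -0.91 and 0.27, and of -0.28 and -0.05 without that array.

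Kif23, the centralspindlin motor of the midzone, was at 9.88, 5.67 and 8.998 against 9.80, 10.17 and 9.54. A single low array made its difference of -1.65 (SE 1.07), which was -0.40 without that array. A second probe set of Kif23 did not overlap between genotypes and differed by -1.29, and by -1.09 without Tcf1-/- replicate 2. Kif2c, which takes microtubules apart at centromeres, was at 10.22, 3.57 and 5.73 against 6.80, 7.76 and 7.42. Its Tcf1-/- arrays spread on both sides of the controls, with a difference of -0.82 (SE 1.62), and 0.65 without Tcf1-/- replicate 2. That probe set ends in _x_at, and the other 3 of Kif2c did not show this spread. On the Tcf1-/- arrays they were at 5.31, 7.35 and 7.28, at 5.67, 5.44 and 6.43, and at 6.51, 5.58 and 5.12. Their genotypes overlapped, with differences of -0.34, -0.51 and 0.25. Kif20a, a motor needed for cytokinesis, and Kif4, a chromosome-bound motor, differed by -0.62 (SE 0.57) and -0.37 (SE 0.49), and by -0.61 and -0.37 without that array. Kif22, a motor that pushes chromosome arms from the poles, differed by 0.66 (SE 0.51), by 0.29 without Tcf1-/- replicate 2, and by -0.27 and -0.68 on its other probe sets.

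Checkpoint and anaphase genes had lower means in 8 of 9 members, with a median of -0.67, and in 8 of 9 without Tcf1-/- replicate 2, with a median of -0.56. Sgol1, which protects centromeric cohesin, was at 7.30, 6.81 and 7.56 in Tcf1-/- and at 7.89, 7.92 and 8.46 in Tcf1-/+. Its genotypes did not overlap, and it differed by -0.87 (interval -1.58 to -0.16), and by -0.66 without Tcf1-/- replicate 2. Pttg1, the securin that restrains separase, was at 11.73, 11.05 and 11.31 against 11.78, 12.32 and 11.83. It was separated by the width of 1 narrow gap, and differed by -0.61 (SE 0.27), and by -0.45 without that array. Its other probe sets overlapped, with differences of -0.37 and -1.40. Without Tcf1-/- replicate 2 the first of these turned to 0.80, with both remaining Tcf1-/- arrays over all controls, and the second was at -1.34.

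Of the checkpoint kinases, Bub1 was at 8.27, 5.21 and 6.19 against 7.76, 7.37 and 7.65. Tcf1-/- replicate 1 was the highest of the 6 and the other Tcf1-/- arrays the lowest, with a difference of -1.04 (SE 0.76), and -0.36 without Tcf1-/- replicate 2. Ttk, the kinase that starts checkpoint signalling, was at 6.72, 4.53 and 6.19 against 7.25, 6.64 and 8.38, and differed by -1.61 (SE 0.70), and by -0.97 without that array. Bub1b, which inhibits the anaphase-promoting complex, differed by -1.06 (SE 0.44), and its partner Mad2l1 by 0.00 (SE 0.61). They differed by -0.77 and -0.56 without Tcf1-/- replicate 2. Ube2c, the ubiquitin carrier of the anaphase-promoting complex, differed by -0.67 (SE 0.67), and the separase gene Espl1 by -0.22 (SE 0.54), or by -0.42 and 0.098 without that array.

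The brightest probe set of Cdc20, the activator of the anaphase-promoting complex, went the other way on Tcf1-/- replicate 2. It was at 7.70, 10.71 and 8.33 in Tcf1-/- against 9.39, 8.60 and 9.48 in Tcf1-/+, so that replicate 2 was the highest of the 6 arrays. Its difference was -0.24 (SE 0.80), and -1.14 (SE 0.39) without that array, when the genotypes did not overlap. That probe set ends in _x_at. Of the 3 probe sets of Cdc20, the one without this suffix had replicate 2 as the lowest array, at 6.62. It differed by -0.43, and by -0.07 without that array, with overlap in both cases. The third, also an _x_at probe set, differed by -0.49, and by -1.02 without that array, again with overlap.

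On the brightest probe sets, genes of mitotic entry had mean differences on both sides of 0 once Tcf1-/- replicate 2 was left out. Of 6 members, 5 had lower means with a median of -0.32, and 1 of 6 without Tcf1-/- replicate 2, when the median was 0.09. Cdk1, the kinase that drives entry, was at 9.02, 7.76 and 8.54 in Tcf1-/- and at 8.67, 8.55 and 8.50 in Tcf1-/+. Only Tcf1-/- replicate 2 stood apart from the rest, and the difference was -0.13 (interval -0.98 to 0.71), and 0.21 without that array. Ccnb2, a B-type cyclin, differed by -0.18 (SE 0.34) and by 0.05 without it.

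Ccna2, the cyclin of S phase and G2, was at 10.61, 7.36 and 9.82 against 10.58, 8.69 and 11.28. The arrays overlapped widely, with a difference of -0.92 (SE 1.03), and 0.03 without Tcf1-/- replicate 2. The second probe set of Ccna2 differed by -1.06, and by -0.57 without that array, with overlap. Cks2, a small subunit of Cdk complexes, differed by -0.62 (SE 0.84) and by 0.24, and on its other probe set by -0.31 and 0.17. Cdc25c, the phosphatase that activates Cdk1, differed by -0.47 (SE 0.42) and by -0.33. For Foxm1, the transcription factor of the G2 programme, the brightest probe set gave 0.22 (SE 0.28), and 0.13 without Tcf1-/- replicate 2. Its other probe sets differed by -0.04, -1.79 and 0.09, and on the one at -1.79 the genotypes did not overlap.

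Spindle proteins and cytokinesis genes had differences of both signs. Tpx2, which activates Aurora A on the spindle, was at 8.59, 6.66 and 7.50 against 7.56, 8.66 and 8.77, with a difference of -0.74 (SE 0.58), and -0.28 without Tcf1-/- replicate 2. Nusap1, a microtubule bundler, differed by -0.51 (SE 0.80), Ckap2 by -0.05 (SE 0.44) and the spindle protein Hmmr by 0.06 (SE 0.26). Without that array they differed by 0.093, 0.30 and 0.21. A second probe set of Nusap1 differed by -0.81, and by -0.95 without that array. The other 4 probe sets of Hmmr differed by 0.12, 0.75, -1.69 and -0.22. On the one at -1.69, which was at -1.19 without Tcf1-/- replicate 2, the genotypes did not overlap in either case. Of the cytokinesis genes, Prc1, which bundles midzone microtubules, differed by -0.38 (SE 0.79) and the RhoA activator Ect2 by -0.40 (SE 0.80). They differed by 0.14 and 0.23 without Tcf1-/- replicate 2. A second probe set of Prc1 differed by -1.11, and by -1.17 without that array. Anln, the scaffold of the contractile ring, differed by 0.25 (SE 0.55) and by -0.27 without that array. Its other probe set differed by 0.07, and by 0.88 without that array. Racgap1, the partner of Kif23 in centralspindlin, was at 8.16, 5.27 and 6.498 against 6.28, 5.77 and 6.499. It differed by 0.46 (SE 0.73), and by 1.15 without that array. Its other probe sets differed by -0.40 and -0.06, the second with both means under background. The first of these was at -0.13 without that array. Lower means were found for 3 of 4 spindle proteins and 2 of 4 cytokinesis genes, and without Tcf1-/- replicate 2 for 1 of 4 in each.

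**Figure D4:**
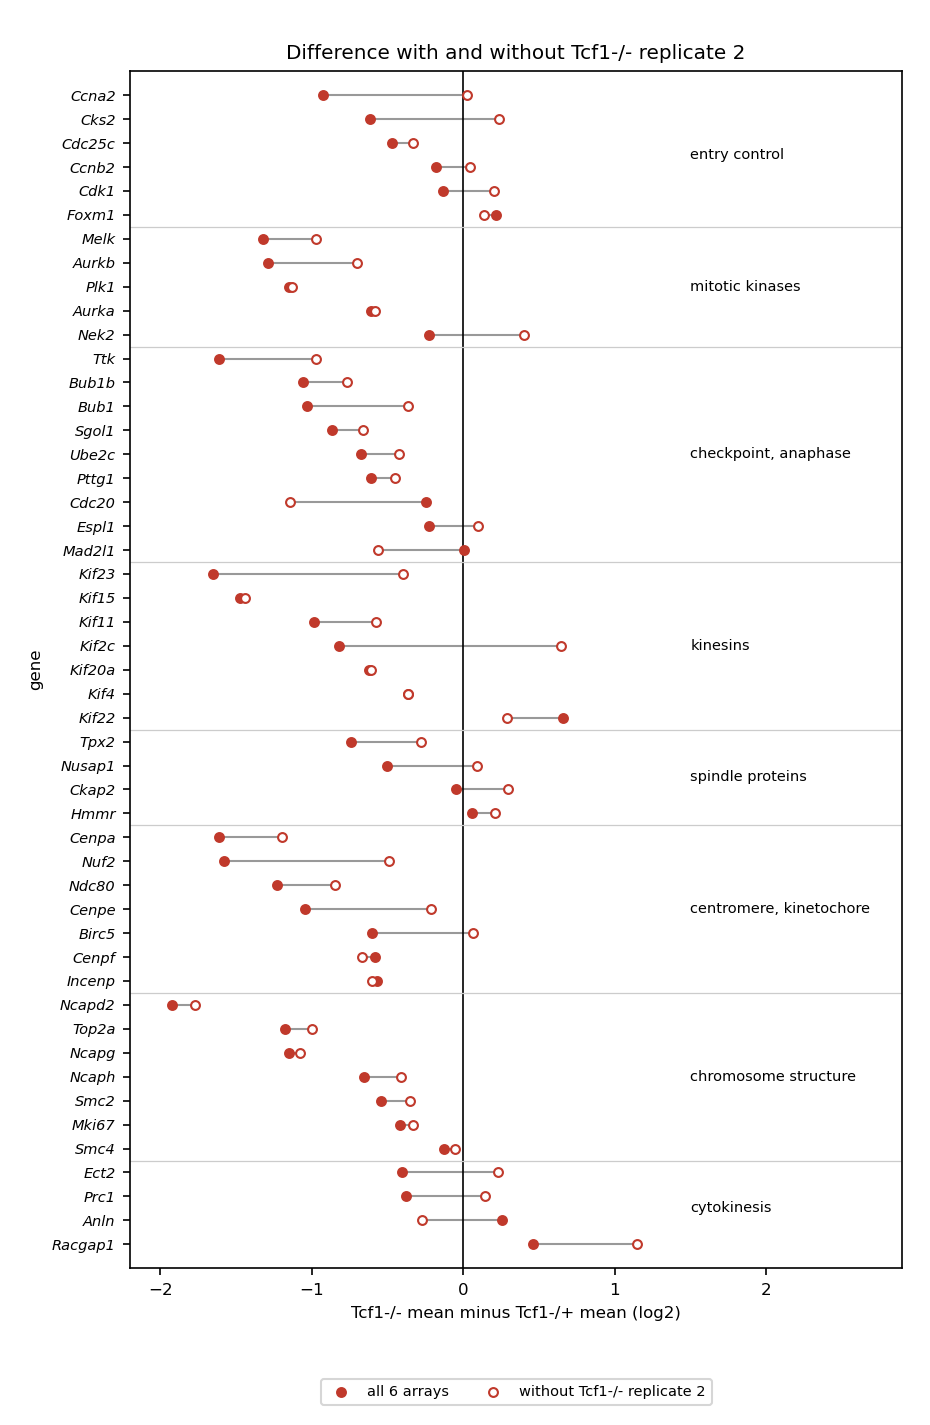
Difference of the Tcf1-/- and Tcf1-/+ means in log2 units for the 49 measured members grouped by role, with all 6 arrays (filled points) and without Tcf1-/- replicate 2 (open points), joined by a line. The chromosome structure genes stay left of 0 in both, while 12 members in other groups cross from lower to higher.

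Members with several probe sets did not always give 1 answer. Of 110 probe sets of the 49 members, 88 had lower means in Tcf1-/-, and of the 61 that were not the brightest of their gene, 41 had the sign of the brightest. All probe sets were lower for 33 members, 18 of which had more than 1. The brightest probe set of 6 members ends in _x_at, a suffix for probe sets with probes that also match other transcripts. On Tcf1-/- replicate 2, 13 of 90 member probe sets of other kinds lay above the mean of Tcf1-/- replicates 1 and 3 (14.4%), against 6 of 10 of the _x_at kind (60.0%). Over all genes the shares were 49.0% and 49.7%, probe sets with both means under background being left out. Within genes that had both kinds the direction was mixed. Relative to that mean, the _x_at kind lay above the others for Cdc20, Kif22, Foxm1, Hmmr and Incenp. It lay under them for Cdc25c, Aurkb, Ncaph and Kif2c, the last at -4.40 against 0.07.

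**Figure D5:**
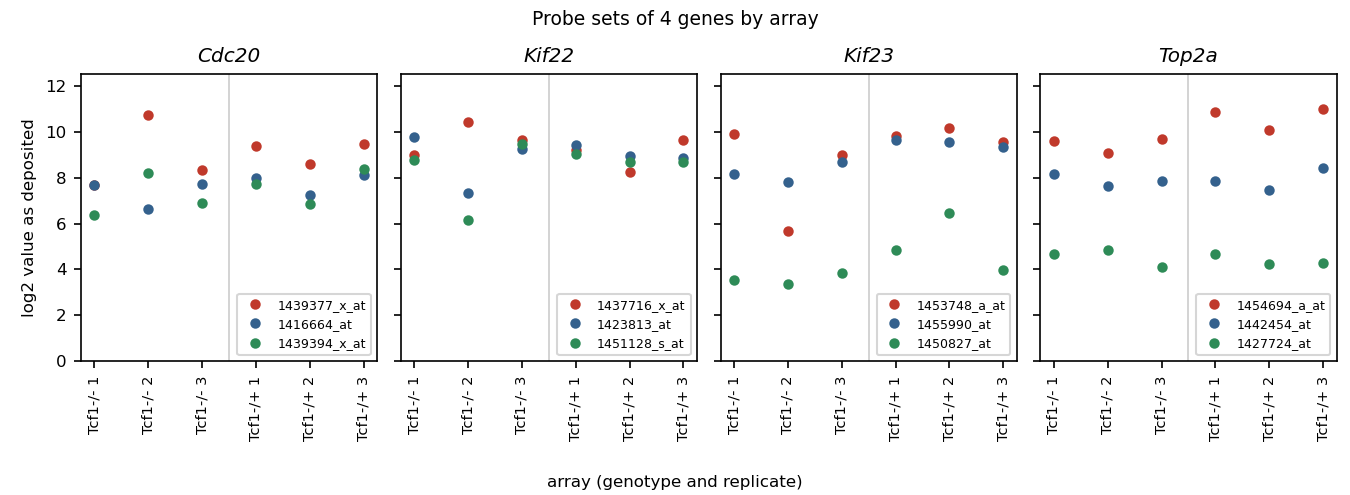
Deposited log2 values of each probe set of Cdc20, Kif22, Kif23 and Top2a by array, 1 colour for each probe set, with Tcf1-/- arrays left of the grey line and Tcf1-/+ arrays right of it. On Tcf1-/- replicate 2 the _x_at probe sets of Cdc20 and Kif22 are high, at 10.71 and 10.43, where their plain probe sets are low, at 6.62 and 7.34. In Cdc25c, Aurkb, Kif2c and Ncaph, which are not drawn, the _x_at kind was the lower one relative to Tcf1-/- replicates 1 and 3.

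Other genes of the pathway were read from lists beside the members. Of 57 further mitosis genes measured, 43 had lower means (75.4%, median -0.44), against 45.7% of all genes. At an unadjusted p under 0.05 in limma, 4 of the 57 were lower and 0 higher. Of all genes 3.4% were lower and 3.38% higher at that level, and 4.18% of the genes above background were lower. Without Tcf1-/- replicate 2 the lower means numbered 36, with a median of -0.07. At the same level 3 were then lower and 1 higher, where 3% of all genes were lower. The genes of smallest unadjusted p were Mad1l1, a checkpoint protein, which differed by -1.33 (SE 0.35), the minus-end motor Kifc1 by -1.46 (SE 0.49), the condensin II subunit Ncapg2 by -1.53 (SE 0.54) and Spc25 of the Ndc80 complex by -1.20 (SE 0.43). These 4 differed by -1.57, -1.72, -1.13 and -0.82 without Tcf1-/- replicate 2. The Tcf1-/- mean of Kifc1, at 4.97 over 3 arrays, lay under background, and its genotypes overlapped with all arrays. Of 40 DNA replication genes, 27 had lower means (median -0.22) and 20 without that array (median 0.00), with the polymerase subunit Pold1 at -1.25 (SE 0.45), Uhrf1 at -0.82 (SE 0.31), Orc1 at 1.52 (SE 0.68) and Rfc3 at -1.28 (SE 0.60). Without that array these 4 were at -0.92, -0.70, 1.67 and -1.28. On Tcf1-/- replicate 2 the median of centred values was -0.65 for replication genes and -0.85 for the further mitosis genes, beside -0.84 for the members.

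Genes of quiescence and arrest were mixed, with 9 of 13 means lower and 4 higher (median -0.14). The majority turned without Tcf1-/- replicate 2, with 6 lower and 7 higher (median 0.060). Rbl2, the pocket protein p130 of the DREAM complex, was at 9.41, 10.21 and 9.22 in Tcf1-/- and at 8.29, 8.44 and 8.41 in Tcf1-/+. Every Tcf1-/- array lay over every control, with a difference of 1.23 (SE 0.30), and 0.94 without Tcf1-/- replicate 2. Rbl1, the related pocket protein p107 that is itself high in dividing cells, was at 7.70, 7.03 and 8.24 against 8.61, 8.97 and 8.87. It was lower without overlap, by -1.16 (SE 0.34), and by -0.85 without that array. Btg1, an antiproliferative gene, was higher without overlap, by 1.00 (SE 0.30), and by 0.75. In limma their adjusted p were 0.538, 0.639 and 0.642.

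Markers of other cell types were read on the same arrays. NK and innate lymphoid markers had higher means in Tcf1-/- for 6 of 7 genes, 4 of them without overlap, and their mean log2 level lay between 7.88 and 8.59 on the Tcf1-/- arrays and between 6.15 and 6.58 on the Tcf1-/+ arrays, with 2 of the 7 under background in both genotypes. Erythroid markers had higher means for 6 of 8 genes, at 6.29 to 7.60 against 5.37 to 7.41, and myeloid markers for 7 of 9, at 7.67 to 8.82 against 6.82 to 9.03. B-lineage markers had higher means for 5 of 7 genes, at 5.66 to 6.07 against 5.56 to 5.85. Double-positive T-cell markers had higher means for 4 of 6, at 6.06 to 6.55 against 5.62 to 6.32, with 2 higher and 1 lower without overlap. Stromal markers had higher means for 7 of 7, at 6.10 to 6.26 against 5.57 to 6.16. Without Tcf1-/- replicate 2, higher means were found for 6 of 7 NK and innate lymphoid, 8 of 8 erythroid, 8 of 9 myeloid, 4 of 7 B-lineage, 4 of 6 double-positive and 4 of 7 stromal markers. The part of these markers in the values of the mitosis genes was not tested.

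Members with and without a CHR core were set side by side. The 29 measured members with the core had a median of -0.58, with 25 of 29 lower and 8 lower without overlap. The 12 without it had a median of -0.64, with 11 of 12 lower and 3 lower without overlap. The medians were -0.40 and -0.39 without Tcf1-/- replicate 2.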

How the data were processed

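RNA of 6 sorted samples was measured on 1 array each, 3 Tcf1-/- and 3 Tcf1-/+, with groups taken from the sample titles. The authors deposited 1 log2 value for each probe set and array, a scale read from the range of 2.15 to 14.8. Their summary and normalization methods are not given here. They were used as deposited. Of 45101 probe sets, 64 controls were left out and 45037 tested with limma 3.58.1 in R 4.3.3 (two-sided, no covariates), with p-values adjusted by Benjamini-Hochberg over all of them at 0.05. Probe sets were named by the platform annotation where it gave 1 symbol, and old symbols were matched through RefSeq synonyms of GRCm38.p6. SEs and 95% intervals are limma's moderated ones. The fit was tested on simulated data. The number of arrays limits the precision, and 3 against 3 allows an exact permutation p no lower than 0.1, so none was used.

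The members and lists were chosen with earlier results of these data known, so their counts are descriptions beside all genes. All members may be named, along with the 4, 4 and 3 genes of smallest unadjusted p of the further mitosis, replication and quiescence lists and the sort gate genes. Columns of values not used numbered 0. Alternatives were a replicate block, quantile normalization, a common median, a filter and a floor at background, array weights, the mean of all probe sets and leaving out each array. Chosen after seeing the data were a Y-linked covariate, the arrays of low Y-linked signal and probe sets without the _x_at or _s_at suffix.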

Additional observations from a re-analysis of the deposited data

How the results depend on the processing

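Under all 16 alternatives 0 members passed limma's adjusted threshold, against 10 lower and 0 higher at an unadjusted p under 0.05 in the main comparison, a count that lay between 7 and 14 over the alternatives. Members with lower means numbered between 33 (without Tcf1-/- replicate 2) and 46 (mean of all probe sets), and the median difference lay between -0.90 and -0.37. Leaving out 1 array gave 13 to 22 members lower without overlap, against 12, the 22 being without Tcf1-/- replicate 1, and the arrays of low Y-linked signal gave 26; fewer arrays overlap less. The arrays of low Y-linked signal are 1 Tcf1-/- and 2 Tcf1-/+ arrays, and the lone array was assumed to vary like the others. On those arrays 35 members had lower means, with a median of -0.39. A covariate of Y-linked signal left 43, with a median of -0.57. The replicate block left 43 lower means and gave 11 members at an unadjusted p under 0.05. Arrays of the same number had deviations correlated at 0.03, 0.04 and 0.01, and 3 of 6 arrays correlated best with their own number. The labels do not say whether arrays of the same number were handled together, and these correlations cannot decide it.

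Single members were followed under 15 of the 16 alternatives, not on the arrays of low Y-linked signal alone, and under those 15 the sign held for 29 members, each lower in Tcf1-/-. It turned for 18 when single arrays were left out, with ranges of Anln -0.27 to 0.62, Birc5 -0.996 to 0.067, Ccna2 -1.67 to 0.027, Ccnb2 -0.50 to 0.045, Cdc20 -1.14 to 0.36, Cdk1 -0.42 to 0.21, Ckap2 -0.51 to 0.30, Cks2 -1.37 to 0.24, Ect2 -1.11 to 0.23, Espl1 -0.75 to 0.11, Hmmr -0.11 to 0.21, Kif2c -2.68 to 0.65, Mad2l1 -0.56 to 0.43, Nek2 -0.91 to 0.40, Nusap1 -1.19 to 0.093, Prc1 -1.05 to 0.20, Racgap1 -0.30 to 1.15, Smc4 -0.32 to 0.056. With array weights Cdk1 was at 0.011, Ckap2 at 0.089, Mad2l1 at -0.24 and Nek2 at 0.070, and with quantile normalization Ckap2 was at 0.0028. With the mean of all probe sets Foxm1 was at -0.38, Hmmr at -0.19 and Kif22 at -0.10. Without _x_at and _s_at probe sets Foxm1 was at -0.044 and Kif22 at -0.27. The causes were not tested.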
